A study of Mus musculus with 6 samples.

Results

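The 36 genes described here carry out the interferon response and class I antigen presentation, and they were taken as a list of symbols from an exon count table of 24940 genes. All 36 symbols had a row, and 35 had enough counts to be tested; the exception was Mx1. The table holds 6 RNA sequencing libraries of primary hepatic stellate cells, which store vitamin A and wrap the liver's sinusoids, isolated from female C57BL/6JBomTac mice, with no age or genetic change named in the labels. From 2 days after isolation, the cells of 3 libraries (OCA A, B and C) received 10 µM obeticholic acid (OCA), a bile acid derivative that activates the nuclear receptor FXR, and those of 3 (DMSO A, B and C) received the same volume of the solvent DMSO (1:1000), in both cases for 6 hours in their existing medium. The comparison asks how the added compound changed these genes relative to its solvent, and both groups share the days in culture after isolation. The labels do not tie libraries to separate animals, so a p-value here covers the spread among 6 libraries, and that spread may be technical.

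Interferons are secreted proteins that warn cells of viral infection. Cytosolic sensors such as RIG-I and MDA5 detect viral RNA and switch on transcription factors of the IRF family, which induce type I interferon. Interferon then binds receptors on the same or other cells, and the receptor-linked kinases activate a transcription factor complex that contains STAT2 and IRF9. That complex binds the interferon-stimulated response element (ISRE) in the promoters of many genes, whose products block viral replication, while interferon gamma acts through the gamma-activated sequence (GAS). Many of these genes are also expressed at a low level without added interferon, and interferon signalling raises the genes that load peptides onto class I molecules for display to T cells.

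Promoters of the genes called higher with the smallest p-values are printed because the ISRE is the element through which interferon acts on this family. They are RefSeq sequences of GRCm38.p6, the assembly that mm10 coordinates follow, and each covers the 250 bases before the RefSeq start, written in the direction of transcription. Capitals mark matches on either strand to the ISRE core GAAANNGAAA or to the GAS core TTCNNNGAA. The windows are chr19:34583279-34583528 on the plus strand for Ifit3, chr19:34607707-34607956 on the plus strand for Ifit3b, chr5:120907526-120907775 on the minus strand for Oas1a, chr2:62646256-62646505 on the minus strand for Ifih1 and chr3:142559794-142560043 on the plus strand for Gbp3.
Ifit3: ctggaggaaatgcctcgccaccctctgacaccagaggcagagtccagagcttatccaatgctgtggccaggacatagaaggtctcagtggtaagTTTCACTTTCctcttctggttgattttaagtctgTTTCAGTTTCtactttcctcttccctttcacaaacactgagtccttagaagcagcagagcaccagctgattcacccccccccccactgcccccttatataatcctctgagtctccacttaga
Ifit3b: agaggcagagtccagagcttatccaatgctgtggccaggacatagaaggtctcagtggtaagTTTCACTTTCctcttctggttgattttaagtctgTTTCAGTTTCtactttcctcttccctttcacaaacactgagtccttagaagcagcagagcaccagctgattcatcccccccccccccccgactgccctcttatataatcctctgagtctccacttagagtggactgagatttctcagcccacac
Oas1a: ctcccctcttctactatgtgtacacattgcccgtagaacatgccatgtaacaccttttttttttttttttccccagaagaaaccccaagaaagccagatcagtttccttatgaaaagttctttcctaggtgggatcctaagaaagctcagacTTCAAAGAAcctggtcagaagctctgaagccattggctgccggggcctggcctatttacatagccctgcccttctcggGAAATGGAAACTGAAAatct
Ifih1: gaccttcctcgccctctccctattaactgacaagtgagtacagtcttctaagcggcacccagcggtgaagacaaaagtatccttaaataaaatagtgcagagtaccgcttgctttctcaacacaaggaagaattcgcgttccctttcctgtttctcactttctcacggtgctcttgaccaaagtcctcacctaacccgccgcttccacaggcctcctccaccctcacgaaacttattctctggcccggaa
Gbp3: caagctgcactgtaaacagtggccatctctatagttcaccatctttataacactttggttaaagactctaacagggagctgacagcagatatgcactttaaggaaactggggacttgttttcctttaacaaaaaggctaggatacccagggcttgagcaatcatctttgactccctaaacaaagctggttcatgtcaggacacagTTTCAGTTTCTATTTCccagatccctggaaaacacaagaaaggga
Dhx58 is named only.

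The Ifit3 and Ifit3b windows shared an identical run of 169 bases, which began 218 bases before the Ifit3 start and 250 bases before the Ifit3b start. It contains both ISRE cores of each gene, at 156 and 122 bases before the start of Ifit3 and at 188 and 154 bases before that of Ifit3b. In Oas1a the capitals near the end are 2 overlapping ISRE cores 20 and 14 bases before the start, and the block further upstream is a GAS core at 98 bases. Gbp3 also held 2 overlapping ISRE cores, 45 and 39 bases before its start. Ifih1 had no match in the printed stretch, and its ISRE core GAAACAGAAA lay 33 bases after the start.

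RefSeq promoters of 300 bases, from 250 before to 50 after the start, were found for 31 of the 36 genes, and 29 of them began at the same base as the transcript in the count table. An ISRE core was present in 15 of the 31 (48.4%), beside 3.44% of the 18061 genes of the table with such a promoter. A GAS core was present in 8 of the 31 (25.8%), beside 8.11% of the same genes. By role, an ISRE core was found in 2 of 2 viral RNA sensor genes, 1 of 1 gene of the ISG15 system, 3 of 3 guanylate-binding protein genes, 3 of 4 IFIT genes, 4 of 10 other antiviral effector genes, 1 of 5 transcription factor genes and 1 of 6 antigen presentation genes, the last being B2m. In Bst2 and Ifitm3 a GAS match overlapped an ISRE match, and Oas1a, Bst2, Isg15 and Gbp3 held ISRE matches that overlapped one another. A match describes the letters of a window, and no binding was measured.

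**Figure D1:**
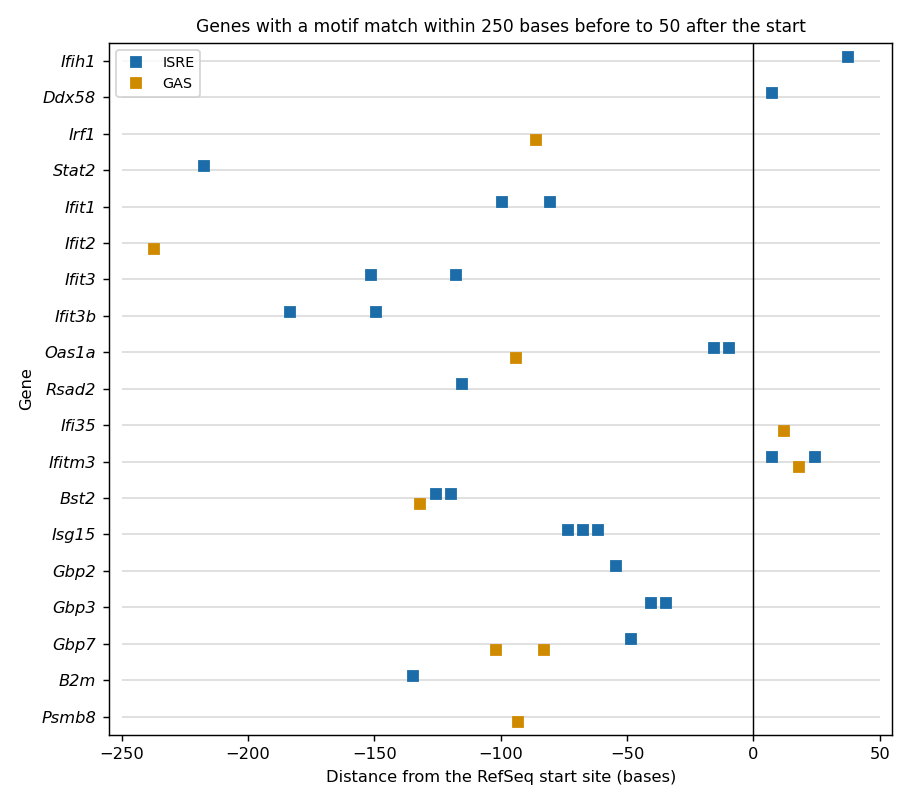
Position of ISRE (blue) and GAS (orange) matches in the promoters of the 19 genes that held at least 1, as the distance in bases of each match's middle from the RefSeq start site (x axis), with 1 gene per line (y axis). Most ISRE matches lie before the start, and those of Ifih1, Ddx58 and Ifitm3 lie after it.

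In the comparison of OCA with DMSO, 8 of the 35 tested genes were higher and 0 were lower by edgeR's quasi-likelihood test at an adjusted p under 0.05. They were the RNA sensor genes Ifih1 and Dhx58, the IFIT genes Ifit3 and Ifit3b, the oligoadenylate synthetase family genes Oas1a and Oasl2, the guanylate-binding protein gene Gbp3 and the immunoproteasome subunit gene Psmb8. Over all 12687 tested genes 2.18% were called higher and 3.03% lower. Without adjustment, 14 of the 35 genes were higher and 2 (B2m and H2-D1) lower at p under 0.05, and 2405 of all tested genes had such a p in either direction. Of the 35 genes 31 had a log2 fold change above 0 (88.6%), beside 50.2% of all tested genes, and the median was 0.22 beside 0.0008. In 11 genes all 3 OCA values lay above all 3 DMSO values and in 0 all lay below, while over all tested genes 11.6% lay above and 11.3% below. Called differences ranged from 1.23-fold (Ifih1 and Psmb8) to 1.99-fold (Dhx58). DESeq2 and limma-voom each called 6 higher and 0 lower, library totals gave 7 and the other 2 scalings 8. Single libraries moved the number called higher more: leaving out OCA A gave 1, leaving out OCA B 6, OCA C 10, DMSO A 2, DMSO B 4 and DMSO C 3. The number called over all tested genes also moved, and its range is given near the end. OCA C was the lowest of its group in 27 of the 35 genes, so leaving it out favours higher calls by itself. No conclusion is drawn from the 10, or from a gene that gained its call without OCA C.

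**Figure D2:**
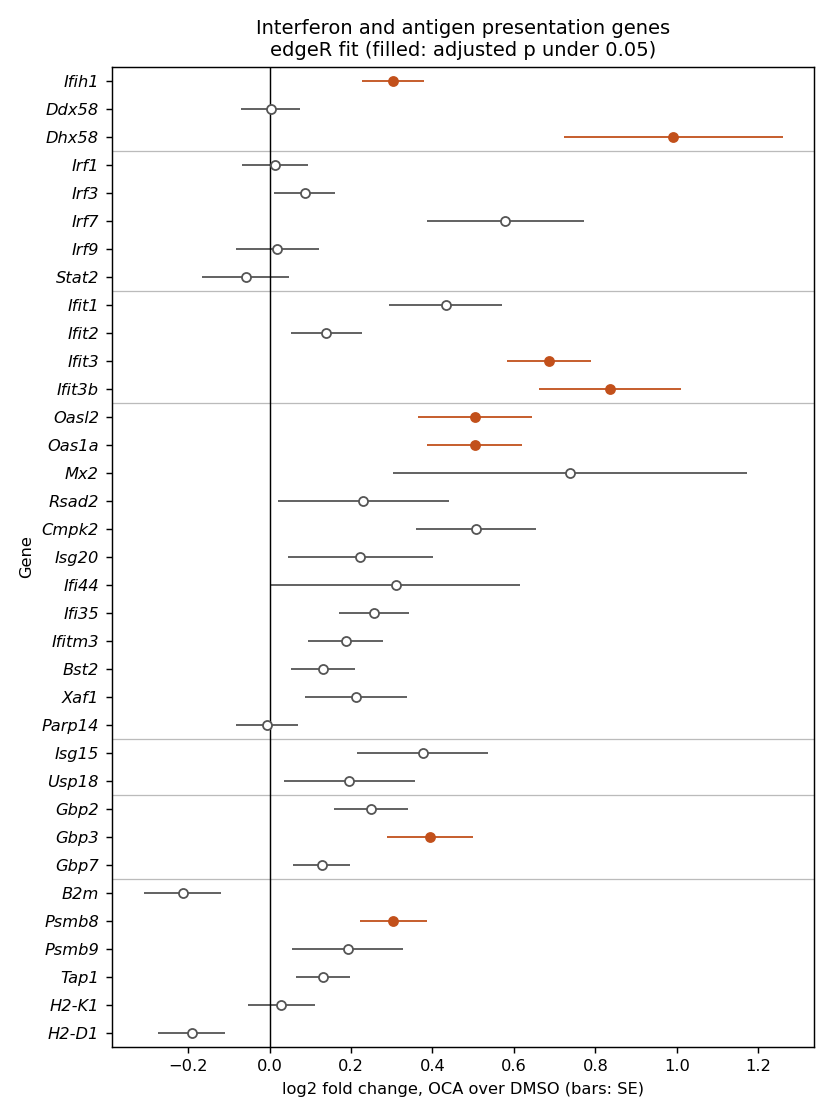
Log2 fold change of OCA over DMSO (x axis, with bars for the standard error) of the 35 tested genes (y axis), grouped by role and fitted with edgeR on 3 against 3 libraries. Filled points are the 8 genes with adjusted p under 0.05, and 31 points lie to the right of 0.

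The libraries of the OCA group differed in the levels of these genes. No DMSO library is said to be the partner of any of them, so a response per library cannot be read. Levels were compared as log2(CPM + 0.5) minus the mean of the DMSO libraries, where CPM is the count scaled to a common library total with TMM factors. Leaving the 6 antigen presentation genes aside, the median of this difference over the other 29 was 0.34 in OCA A, 0.30 in OCA B and 0.07 in OCA C. OCA A was above the DMSO mean in 28 of the 29, OCA B in 29 and OCA C in 20. OCA C was the lowest of its group in 25 of the 29, beside 31.9% of all tested genes, while OCA B was the highest in 16 and OCA A in 12. Irf7 gives the widest case among the transcription factor genes, with 29.3 CPM in OCA A, 38.6 in OCA B and 17.2 in OCA C. The 3 DMSO libraries had medians of -0.01, 0.02 and 0.01. The median coefficient of variation over the 35 genes was 7.74% in DMSO and 11.35% in OCA, and over all tested genes it was 7.69% and 7.87%. Without OCA C, 22 of the 35 genes did not overlap with DMSO (15.7% of all tested genes with that library left out). OCA C was the lowest of its group in most of these genes, so leaving it out raises their number by itself. The share over all tested genes was not selected in this way, so no conclusion is drawn from the comparison.

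Abcb11 and Nr1h4 were read as a check of the treatment, and the reason for the lower values in OCA C was not tested. Abcb11, the bile salt export pump gene and a direct FXR target, stood at 4.50 CPM in OCA A, 4.56 in OCA B and 5.57 in OCA C, beside 0.0976 to 0.181 in DMSO. Nr1h4, the gene of FXR itself, stood at 68.8, 65.0 and 63.7 CPM in OCA A, B and C and at 81.3 to 86.0 in DMSO, a log2 difference of -0.35 (SE 0.07; adjusted p 0.00535).

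**Figure D3:**
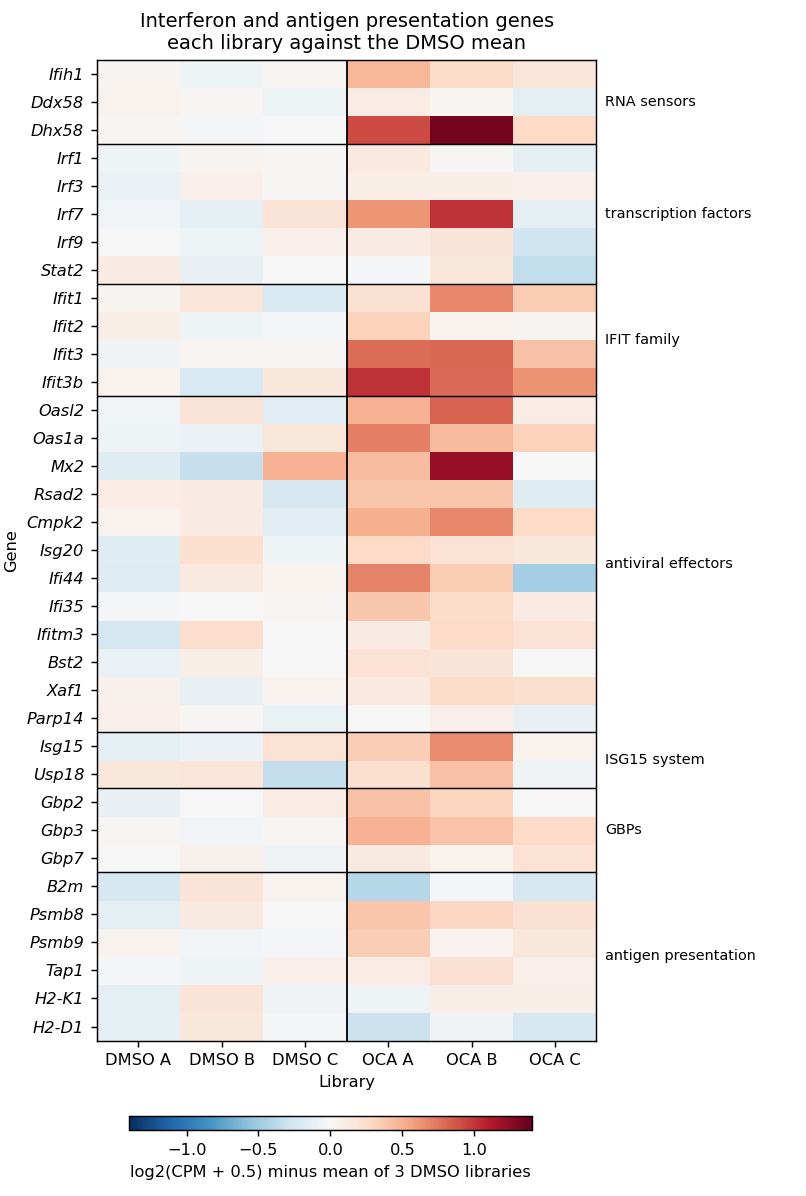
Each of the 35 tested genes (rows, grouped by role) in each of the 6 libraries (columns), as log2(CPM + 0.5) minus the mean of the 3 DMSO libraries, red above and blue below that mean. OCA A and OCA B are red in nearly all rows above antigen presentation (28 and 29 of 29), and OCA C is paler (20 of 29 above the mean).

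Of the 3 viral RNA sensor genes, 2 rose. Ifih1 encodes MDA5, which binds long double-stranded RNA, and had 127, 110.5 and 104 CPM in OCA A, B and C against 94.6, 88.4 and 94.1 in DMSO A, B and C. The groups did not overlap, and the log2 fold change was 0.30 (SE 0.08, adjusted p 0.0256). Dhx58 encodes LGP2, a relative of MDA5 and RIG-I that modulates both, and had 8.03, 10.96 and 4.99 CPM in OCA against 4.10, 3.93 and 4.03 in DMSO. OCA C lay little above the DMSO libraries, whereas OCA B was the highest, and the fitted difference was 0.99 on the log2 scale (SE 0.27, adjusted p 0.0366). Ddx58, the gene of RIG-I, stood at 118 ± 10.0 CPM in OCA and 118 ± 4.79 in DMSO (SD, n = 3), a difference of 0.00 on the log2 scale (SE 0.07, adjusted p 0.991). Ifih1 (chromosome 2, 62595793 to 62646255, minus strand, in the table's mm10 coordinates for the whole transcript) lost its call without OCA A (adjusted p 0.1645) and without any 1 of the DMSO libraries (0.0599 for A, 0.0924 for B, 0.0744 for C). Dhx58 (chromosome 11, 100694884 to 100704271, minus strand) shares 141 exonic bases with the antisense gene Dhx58os, and it lost its call when any library but OCA C was left out (0.1059 for OCA A, 0.1528 for OCA B, 0.1234 for DMSO A, 0.0906 for DMSO B, 0.1053 for DMSO C) and with limma-voom (0.0673). Leaving out OCA B and DMSO A together also lost it (adjusted p 0.2352).

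None of the 5 transcription factor genes passed edgeR's test, DESeq2 or limma-voom, and 1 (Irf7) had an unadjusted p under 0.05. Irf7 was called higher in 3 of the 19 alternatives: without OCA C (adjusted p 0.0015), with no filter on low counts (0.000246) and with the replicate block and length offsets together (0.00152). Irf7, which amplifies type I interferon production, had the largest difference, with 28.4 ± 10.7 CPM in OCA and 18.9 ± 2.27 in DMSO (SD, n = 3) and a difference of 0.58 on the log2 scale (SE 0.19, adjusted p 0.0911). OCA C, at 17.2 CPM, fell within the DMSO range of 17.1 to 21.5. Stat2 and Irf9 encode parts of the complex that binds the ISRE, and their log2 fold changes were -0.06 (adjusted p 0.808) and 0.02 (adjusted p 0.941). Irf1, a factor induced mainly by interferon gamma, had 0.01 (adjusted p 0.948), and Irf3, which the sensors activate by phosphorylation, had 0.09 (adjusted p 0.569). Irf1, Irf9 and Stat2 changed sign when single libraries were left out, so their direction was not determined. RNA levels do not measure the activation of these factors.

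Among the 4 genes of the IFIT family, some of whose products bind viral RNA and block its translation, Ifit3 and Ifit3b rose. Ifit3 (chromosome 19, 34583529 to 34588982, plus strand) had 54.6, 55.7 and 42.4 CPM in OCA A, B and C against 30.7, 32.3 and 32.0 in DMSO A, B and C. Every OCA library stood above every DMSO library, with a 1.61-fold difference (log2 fold change 0.69, SE 0.10, adjusted p 0.000295). Ifit3 was the only one of the 8 genes still called after each of the 6 libraries was left out in turn, and in all 19 alternative analyses. Ifit3b (chromosome 19, 34607957 to 34613401, plus strand) lies downstream on the same strand and had 16.6, 14.1 and 12.6 CPM in OCA against 8.30, 6.82 and 8.95 in DMSO, a 1.79-fold difference (log2 fold change 0.84, SE 0.18, adjusted p 0.00739) that lost its call without OCA A (adjusted p 0.0576). The transcripts are copies over much of their length: 51.2% of the 50-base words of Ifit3 also occur in Ifit3b, so counting could have split reads between them. Summed, the pair gave 71.3, 69.8 and 54.96 CPM in OCA against 39.0, 39.1 and 41.0 in DMSO, and the groups again did not overlap. Ifit1 had 24.7 ± 4.19 CPM in OCA and 18.4 ± 2.51 in DMSO (SD, n = 3), with groups that did not overlap but an adjusted p of 0.0820; it was called with no filter on low counts (0.0228), with the replicate block (0.0473) and with the block and length offsets together (0.0162). Ifit2 was the flattest of the 4, differing by 0.14 on the log2 scale (SE 0.09, adjusted p 0.404).

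Of the 12 tested genes for OAS, Mx and other antiviral effectors, Oas1a and Oasl2 rose. Oas1a encodes an enzyme that makes oligoadenylates when it meets double-stranded RNA, which in turn activate RNase L. It had 39.6, 32.7 and 30.2 CPM in OCA A, B and C against 22.9, 22.5 and 26.7 in DMSO A, B and C, without overlap (log2 fold change 0.50, SE 0.12, adjusted p 0.0157). Oas1a (chromosome 5, 120896257 to 120907525, minus strand) shares 57.6% of its 50-base words with Oas1g, which stood at 4.39 CPM in OCA and 4.38 in DMSO and did not pass the test. The sum of both was 44.0, 38.5 and 33.2 CPM in OCA against 25.8, 26.8 and 32.7 in DMSO. Oasl2 (chromosome 5, 114896934 to 114912245, plus strand), an OAS-like gene, had 39.0, 49.5 and 29.8 CPM in OCA against 27.0, 31.6 and 25.0 in DMSO, so OCA C lay below DMSO B (log2 fold change 0.50, SE 0.14, adjusted p 0.0418). Oas1a lost its call without OCA A (adjusted p 0.1081), and also without DMSO A (0.0860) or DMSO B (0.0678). For Oasl2 the same held when any library but OCA C was left out (0.1112 for OCA A, 0.1366 for OCA B, 0.1659 for DMSO A, 0.0548 for DMSO B, 0.1822 for DMSO C), for limma-voom (0.0515) and for robust estimation (0.0935). Leaving out OCA B and DMSO A together also lost the call of Oasl2 (adjusted p 0.1891).

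The other effectors mostly stood above their DMSO levels without passing the test. Cmpk2, a mitochondrial nucleotide kinase gene next to Rsad2, was just outside the threshold, with 19.0, 21.6 and 16.1 CPM in OCA against 13.8, 14.5 and 11.8 in DMSO (log2 fold change 0.51, SE 0.15, adjusted p 0.0514). It was called in 6 of the 19 alternatives, with adjusted p from 0.00974 to 0.0453, among them the analysis without OCA C (0.0427). Rsad2, the gene of viperin, had 8.99 ± 1.97 CPM in OCA and 7.67 ± 1.06 in DMSO (SD, n = 3; adjusted p 0.594). Ifi35 and Xaf1 did not overlap between groups, with log2 fold changes of 0.26 (adjusted p 0.0910) and 0.21 (adjusted p 0.379). Ifitm3, which blocks the entry of viruses through endosomes, and Bst2, the gene of tetherin, which holds budding virions at the cell surface, had 0.19 and 0.13. Ifitm3 was called without DMSO B (adjusted p 0.0464). Isg20, an RNA exonuclease gene, had 0.22 and Ifi44 0.31, and Parp14, a mono-ADP-ribosyltransferase gene, had -0.01. Mx2, a dynamin-like GTPase gene, had 2.59 ± 1.35 CPM in OCA and 1.54 ± 0.641 in DMSO (SD, n = 3; log2 fold change 0.74, SE 0.44, adjusted p 0.377). Mx1 was barely detected, with 9 counts over the OCA libraries, all of them in OCA B, and 4.5 over the DMSO libraries, and no fold is given.

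Isg15 encodes a ubiquitin-like modifier and Usp18 the protease that removes it and dampens receptor signalling. Isg15 had 18.4, 23.1 and 14.9 CPM in OCA A, B and C against 13.1, 13.6 and 16.7 in DMSO A, B and C, so OCA C fell within the DMSO range (log2 fold change 0.38, SE 0.16, adjusted p 0.207). For Usp18 the log2 fold change was 0.20 (SE 0.16, adjusted p 0.548). DESeq2 and limma-voom also called 0 of this pair, and Isg15 had an unadjusted p under 0.05.

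Among the 3 guanylate-binding protein genes, whose products attack the vacuoles of intracellular pathogens, Gbp3 rose. It had 33.0, 31.1 and 28.2 CPM in OCA A, B and C against 23.7, 22.7 and 23.8 in DMSO A, B and C, with no overlap and a narrow DMSO group (log2 fold change 0.39, SE 0.11, adjusted p 0.0338). Gbp2 had 99.7, 92.5 and 74.8 CPM in OCA against 69.6, 75.1 and 80.1 in DMSO, with OCA C inside the DMSO range (log2 fold change 0.25, adjusted p 0.129); it was called without OCA C (0.0267), with no filter on low counts (0.0455) and with the replicate block and length offsets together (0.0223). Gbp7, the highest of the 3 in raw CPM together with Gbp2, had 89.2 ± 4.68 CPM in OCA and 81.7 ± 2.995 in DMSO (SD, n = 3; log2 fold change 0.13, adjusted p 0.337). Gbp3 (chromosome 3, 142560044 to 142573213, plus strand) lost its call without OCA A (adjusted p 0.1469), without any 1 of the DMSO libraries (0.1025 for A, 0.0917 for B, 0.0862 for C), with DESeq2 (0.0571) and with library totals (0.0512). Leaving out OCA B and DMSO A together also lost it.

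**Figure D4:**
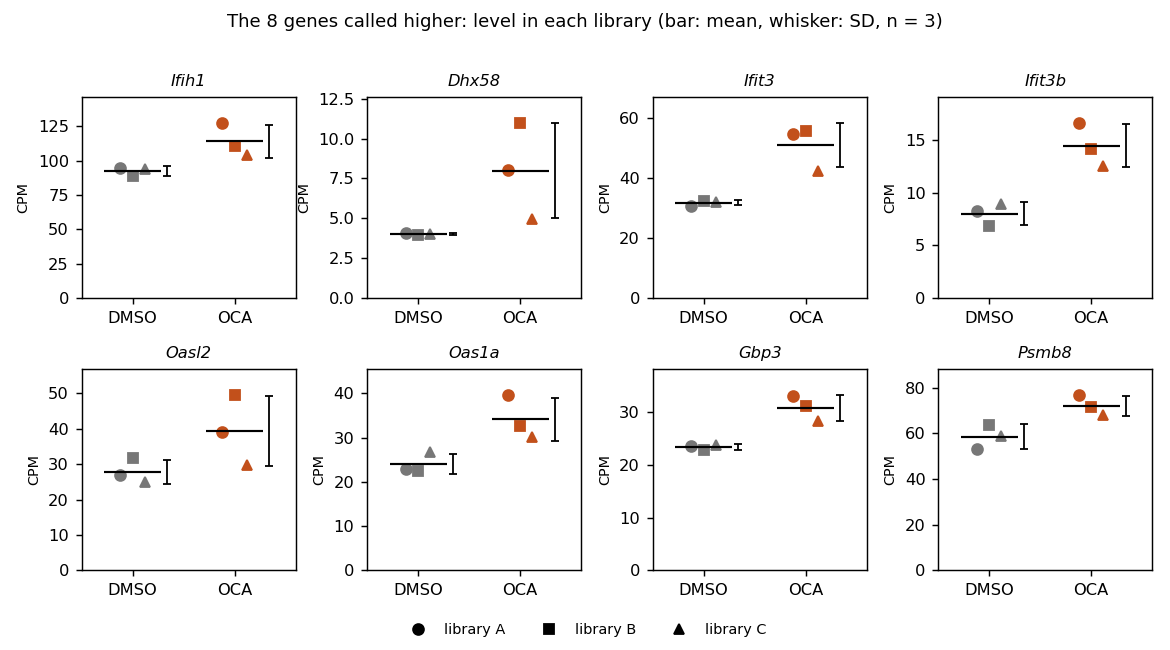
CPM (y axis, from 0) of the 8 genes called higher in the DMSO (grey) and OCA (orange) libraries, with a symbol for each library letter, a bar for the mean and a whisker for the SD (n = 3). OCA C (triangle) is the lowest orange point in all 8 panels, and in Oasl2 it lies below DMSO B.

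The 6 antigen presentation genes did not move together. Psmb8, a catalytic subunit that turns the proteasome into the immunoproteasome, rose from 53.0, 63.9 and 58.7 CPM in DMSO A, B and C to 76.7, 71.6 and 67.9 in OCA A, B and C, with no overlap (log2 fold change 0.30, SE 0.08, adjusted p 0.0368). Psmb9, the gene of a further such subunit, differed by 0.19 on the log2 scale (SE 0.14, adjusted p 0.474), and Tap1, part of the transporter that carries peptides into the endoplasmic reticulum, had 0.13 (SE 0.07, adjusted p 0.294). The heavy chain gene H2-K1 was flat, with 386 ± 24.8 CPM in OCA and 378 ± 44.5 in DMSO (SD, n = 3; log2 fold change 0.03, adjusted p 0.887). The other heavy chain gene, H2-D1, had 266, 318 and 281 CPM in OCA against 298, 365 and 325 in DMSO, and B2m, which encodes the light chain that both heavy chains need at the surface, had 129.9, 169.6 and 147 against 147, 194 and 177. Those 2 genes had negative log2 fold changes, -0.19 (SE 0.08, adjusted p 0.209) and -0.21 (SE 0.10, adjusted p 0.229), with overlapping groups. The median over the 6 genes was 0.08, beside 0.25 over the other 29.

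Psmb8 (chromosome 17, 34198195 to 34201454, plus strand) shares 498 exonic bases with a gene on the opposite strand, and 14.3% of the 50-base words of H2-D1 occur in other genes, class I genes among them. The table also lists H2-L at 35263123 to 35266730 of chromosome 17, inside the H2-D1 row's 35263094 to 35267497, so reads counted in these rows cannot be told apart by position. Psmb8 lost its call without OCA A (adjusted p 0.169), OCA C (0.0525), DMSO A (0.1937) or DMSO C (0.111), with DESeq2 (0.0535) and with length offsets (0.0523). Leaving out OCA B and DMSO A together also lost it. B2m was called lower in 6 of the 19 alternatives: without OCA B (adjusted p 0.0194), without OCA B and DMSO A (2.3e-06), with no filter on low counts (0.0368), with length offsets (0.0466), with the replicate block (0.0487) and with the block and these offsets together (0.0016). H2-D1 was called lower in 1, without OCA B and DMSO A (0.00448). That setting leaves 2 libraries in each group, and more of all tested genes were called lower in it than in the main fit.

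**Figure D5:**
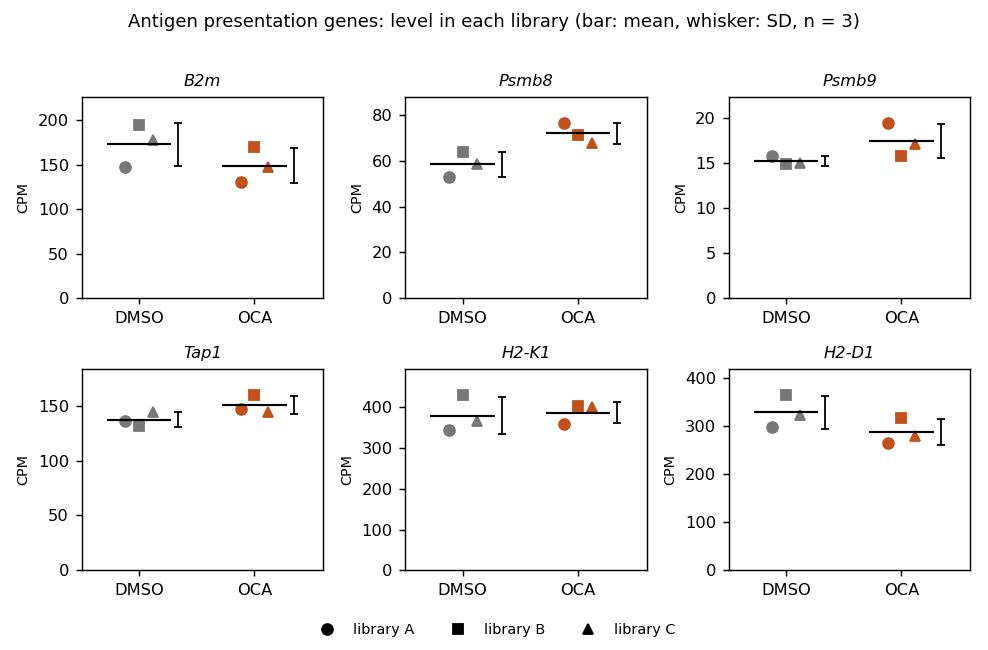
CPM (y axis, from 0) of the 6 antigen presentation genes in the DMSO (grey) and OCA (orange) libraries, with a symbol for each library letter, a bar for the mean and a whisker for the SD (n = 3). Only in Psmb8 do the groups not overlap, and for B2m and H2-D1 the OCA mean lies below the DMSO mean.

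Levels per kilobase of exon set these genes in an order across the DMSO libraries. H2-K1 (231 CPM per kb), Ifitm3 (205), B2m (203) and H2-D1 (191) came at the top, all at or above the 99th percentile of tested genes, followed by Bst2 with 89.0. Neighbours among the first 4 differed by less than the SD between DMSO libraries. The called genes lay further down, from Psmb8 with 48.2 CPM per kb through Ifih1 with 16.8 and Ifit3 with 15.9 to Ifit3b with 3.99 and Dhx58 with 1.68. At the bottom were Ifi44 (1.41), Mx2 (0.643) and Mx1 (0.0441).

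Genes that rose were found both with and without a promoter ISRE core. The 15 genes of the list with a core had a median log2 fold change of 0.25 with 5 called higher, and the 16 with a promoter but no core had 0.20 with 2 called higher. Outside the list, 289 tested genes held an ISRE core, of which 5 were higher and 11 lower, with 54.0% above 0 and a median of 0.02. The 9547 without a core had 197 higher and 287 lower, with 49.9% above 0. Over all tested genes 2.18% were higher and 3.03% lower. B2m holds a core 139 bases before its start and stood lower in OCA on average, and Ifit2 had none in its window.

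The rest of the pathway was read from lists of related genes. None of the 10 interferon genes listed reached enough counts for a test: Ifna1 had 2 counts, both in OCA B, and the other 9, Ifnb1 and Ifng included, had 0 in all 6 libraries, where 3 counts would be 0.181 to 0.251 CPM. Of 10 tested genes for interferon receptors and the signalling proteins next to them, 0 passed edgeR's test, DESeq2 or limma-voom, and 3 were lower at an unadjusted p under 0.05. Over all tested genes 2405 of 12687 had such a p, in either direction. The most abundant were Jak1, a kinase shared by all interferon receptors, with 528 ± 17.4 CPM in OCA and 512 ± 31.8 in DMSO, and Stat3 with 252 ± 7.38 and 277 ± 9.0 (SD, n = 3). Of 14 tested genes of the sensing pathway 0 passed with any of these tools and 0 had an unadjusted p under 0.05. Below 0 lay 10 of the 14, beside 6316 of all 12687 tested genes. The most abundant were the adaptor gene Traf3 (log2 fold change -0.07, and 0.05 with length offsets) and the lipopolysaccharide receptor gene Tlr4 (-0.15).

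Of 5 tested genes for other IRF factors and IRF2-binding proteins, Irf8 rose. This factor is best known from myeloid cells, and it had 24.2, 23.5 and 19.8 CPM in OCA A, B and C against 15.99, 15.6 and 13.4 in DMSO A, B and C (log2 fold change 0.58, SE 0.13, adjusted p 0.0140). Of 65 tested other interferon-induced genes 2 rose and 1 fell, near the 2.18% higher and 3.03% lower over all tested genes, so these counts say nothing particular about the list. At an unadjusted p under 0.05, 12 were higher and 2 lower, while 2405 of all 12687 tested genes had such a p in either direction. Above 0 lay 43 of the 65 (66.2%), with a median of 0.08, beside 50.2% of all tested genes. Uba7, the enzyme that activates ISG15 for conjugation, had 46.8, 41.6 and 32.5 CPM in OCA against 24.8, 26.3 and 22.4 in DMSO (log2 fold change 0.72, SE 0.12, adjusted p 0.00106). Slfn5, of the interferon-induced Schlafen family, rose by 0.31 on the log2 scale (SE 0.07, adjusted p 0.0146). Trim56, a ubiquitin ligase gene, fell by 0.44 on the log2 scale, from 34.7 ± 2.09 to 25.6 ± 1.96 CPM (SD, n = 3; adjusted p 0.0162). In Irf8 and Uba7 OCA C was the lowest OCA library, and in Slfn5 OCA B was. Uba7 was called in all 19 alternative analyses. Irf8 and Slfn5 lost their calls without OCA A (adjusted p 0.0694 and 0.106) or DMSO C (0.0750 and 0.0953), and Trim56 did without OCA A (0.0809) and without DMSO A (0.0502) or DMSO B (0.0718).

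Of 12 tested negative regulators 0 passed with any of the 3 tools and 2 were higher at an unadjusted p under 0.05. The most abundant were Usp25 (log2 fold change -0.04, and 0.02 with length offsets) and Ptpn1 (0.12). Of 25 other tested class I pathway genes, Erap1, which trims peptides in the endoplasmic reticulum, fell from 88.1 ± 4.19 to 73.0 ± 6.31 CPM (SD, n = 3; log2 fold change -0.27, SE 0.08, adjusted p 0.0440). None of the 25 rose with any tool, while 9 were higher and 2 lower at an unadjusted p under 0.05 (over all tested genes 2405 of 12687 had such a p, in either direction). Erap1 lost its call when any library but OCA B was left out (0.1106 for OCA A, 0.2274 for OCA C, 0.1912 for DMSO A, 0.0932 for DMSO B, 0.0817 for DMSO C), with DESeq2 (0.0578) and with length offsets (0.1169). The replicate block and length offsets together also lost it. Class II genes were near the limit of detection: 2 of 12 were tested, H2-DMa at 2.18 CPM in OCA and 2.12 in DMSO and H2-Eb1 at 0.866 and 1.42, and neither passed with any tool or had an unadjusted p under 0.05.

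Markers of the labelled cell type were abundant. Nes averaged 681 CPM in OCA and 687 in DMSO and Pdgfrb 437 and 471, and the 12 stellate markers summed to 2628 to 2982 CPM in OCA and 2833 to 3068 in DMSO, with Lhx2 called higher and Reln lower. The 13 Kupffer cell and macrophage markers summed to 8.82 to 9.05 CPM in OCA and 6.36 to 13.6 in DMSO, led by Cd68 and Csf1r, and Clec4f was at 0 in all libraries but DMSO C, which had 7 counts. The markers of T, NK and B cells reached 0.230 CPM at most, with 7 of 10 at 0 throughout, and those of neutrophils 0.553. Endothelial markers summed to 8.17 to 12.3 CPM in OCA and 7.73 to 9.73 in DMSO, and hepatocyte markers to 2.57 to 6.08 and 2.76 to 3.89. The 5 cholangiocyte markers summed higher in every OCA library, to 11.35 to 14.8 CPM against 8.41 to 9.54, through Sox9, a transcription factor gene (7.68 CPM in OCA and 2.54 in DMSO, adjusted p 0.00322), while Spp1 was at 4.16 and 5.74, Krt19 at 0.719 and 0.654, Epcam at 0.0511 and 0.0434, and Krt7 was at 0 throughout. The 6 mesothelial and portal fibroblast markers summed to 5.22 to 6.76 CPM in OCA and 3.81 to 5.34 in DMSO, led by Eln and Wt1, with 2 at 0 throughout. The part of such cells in the result was not tested. The plasmacytoid dendritic cell list, whose cells are strong interferon producers, summed to 454 to 543 CPM in OCA and 413 to 434 in DMSO, carried by Tcf4 and by Bst2, itself a gene of the interferon list, while its defining marker Siglech averaged 0.05 CPM in OCA and 0.0108 in DMSO. In bulk RNA, fewer cells of a type and less RNA per cell cannot be told apart. Libraries held 12260882 to 16336240 counts.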

How the data were processed

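Polyadenylated RNA of 6 samples was extracted with Trizol and columns and sequenced from NEBNext Ultra libraries, per the labels' protocols. Per the submitters' processing notes, the tools were STAR and HOMER and the build mm10. Their versions, the strand setting and what was done with multiply mapped reads: not given in the sources used here. Unadjusted exon counts per gene were deposited by the authors in steps of 0.5, handled like estimated counts that need not be whole (expected counts) and rounded to whole numbers. The steps' origin is not stated, and without a strand setting, reads of antisense partners cannot be told apart. Samples were grouped by their titles, and 0 count columns were left out.

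OCA was compared with DMSO (3 against 3) with edgeR 4.0.16 (R 4.3.3), using its filterByExpr, TMM scaling and the two-sided quasi-likelihood test over 12687 genes, with Benjamini-Hochberg adjustment at 0.05. SE is the log2 fold change divided by the square root of F. The common biological coefficient of variation was 7.98%. Counts of libraries within a group had a chi-square per degree of freedom of 4.40 to 8.01, more than sampling noise gives. Motifs were searched on both strands of RefSeq promoters. Shared sequence and exon overlap were read from GENCODE transcripts of the same assembly.

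The 36 genes, their roles and all lists were chosen with earlier results of these data known, so no p-value is given over a list. Genes of the 36 past the threshold are described in full and the rest by value, range or count. Of each related list the genes past the threshold are named, otherwise the 2 most abundant, and of each marker list up to the 2 most abundant; single markers named beyond these (Clec4f, Siglech, Lhx2, Reln, Krt19, Epcam, Krt7) were chosen after their values were seen. Alternatives were DESeq2 1.42.0, limma-voom (limma 3.58.1), 3 other scalings, 2 other filters, robust estimation, unrounded counts, a block for the replicate letter, offsets for transcript length, a combination of the block with these offsets, leaving out each library, and leaving out OCA B with DMSO A.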

Additional observations from a re-analysis of the deposited data

How the results depend on the processing

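For the single genes of the list, 576 values under an alternative kept direction and side of the threshold, 37 lost the threshold, 24 passed it and 28 changed sign. The median log2 fold change of the 35 genes stayed between 0.17 and 0.31. Leaving out 1 library gave 1 to 10 genes called higher, 0 to 1 called lower and 11 to 22 whose groups did not overlap, and over all tested genes 161 to 363 higher and 104 to 758 lower; a group then holds 2 libraries. Without OCA B and DMSO A, which leaves 2 libraries in each group, 4 were higher and 2 lower (B2m and H2-D1). In that setting 605 of all tested genes were lower, against 384 with all 6 libraries. With no filter on low counts 12 genes were higher (the 8 with Irf7, Ifit1, Cmpk2 and Gbp2) and 1 (B2m) lower, and 703 of all tested genes were lower. Over all tested genes the median log2 fold change fell with transcript length, from 0.0962 in the 1589 shortest to -0.1382 in the 1586 longest. The tested genes of the list had a median length of 2397 bases, beside 2933 over all tested genes. Length offsets gave 1 lower gene, and 377 higher and 230 lower over all tested genes, against 276 and 384. With the replicate block 10 genes were higher and 1 lower, and combined with length offsets 13 and 1, with 469 of all tested genes higher. The letters are not said to pair the libraries. Deviations of same-letter libraries correlated across genes at 0.01 for A, -0.05 for B and 0.08 for C. OCA C correlated best with its own letter, and OCA A did by a narrow margin (0.0077 with DMSO A and 0.0076 with DMSO B). OCA B did not, and its highest correlation was with DMSO A (0.1006). Deviations within a group offset one another, so these correlations cannot decide whether the letters pair the libraries.

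Signs changed for 6 genes near 0. Ddx58 had -0.0002 with DESeq2, -0.0005 with RLE, -0.0086 with upper quartile scaling, -0.0061 with library totals, -0.0048 with no filter, and -0.0518 to 0.0653 when 1 library was left out (below 0 without OCA A, OCA B or DMSO C). Irf1 had -0.002 with length offsets, -0.005 with these and the block, -0.017 without OCA B and DMSO A, and -0.0514 to 0.0771 when 1 library was left out (below 0 without OCA A or DMSO A). Irf9 had -0.0746 without OCA B and DMSO A, and -0.0693 to 0.1466 when 1 library was left out (below 0 without OCA A, OCA B or DMSO B). Stat2 had -0.1766 to 0.0663 when 1 library was left out (above 0 without OCA C or DMSO A). Parp14 had 0.12 with length offsets, 0.1193 with these and the block, and -0.0525 to 0.0383 when 1 library was left out (above 0 without OCA C, DMSO A or DMSO B). H2-K1 had -0.0068 with length offsets, -0.0039 with these and the block, -0.0675 without OCA B and DMSO A, and -0.0386 to 0.1264 when 1 library was left out (below 0 without DMSO A). The cause was not tested.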

Other observations

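Other genes around class I presentation, chosen after their values were seen, fell on both sides of 0. Psmb10, the gene of the remaining catalytic subunit of the immunoproteasome, had 70.5 ± 1.01 CPM in OCA and 59.6 ± 2.87 in DMSO (SD, n = 3; log2 fold change 0.24, SE 0.07, adjusted p 0.0596 by edgeR). Psme1 and Psme2 encode the activator that caps this proteasome and had log2 fold changes of 0.19 (adjusted p 0.177) and 0.22 (adjusted p 0.129). In these 3 genes OCA was higher in 9 of 9 pairings of OCA with DMSO libraries, although none passed the test. Such a lack of overlap held for 8 of the 25 tested genes of their list, with 2 the other way. Over all tested genes the shares were 11.6% and 11.3%. With length offsets the log2 fold changes were 0.19 for Psmb10, 0.12 for Psme1 and 0.15 for Psme2. The peptide loading gene Tapbp had -0.23 (adjusted p 0.309, and 0.00292 without OCA B), Tap2 -0.07 (adjusted p 0.629) and Nlrc5, the transactivator of class I genes, -0.13 (adjusted p 0.648).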
